A study of Mus musculus with 9 samples.

Results

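The circadian output and clock-loop regulators examined here were 9 genes, Dbp, Tef, Hlf, Nfil3, Bhlhe40, Bhlhe41, Nr1d1, Nr1d2 and Ciart, chosen by name from the 21950 genes of the deposited mRNA expression tables. All 9 passed the filter on low values, a mean of at least 0.1 FPKM (fragments per kilobase of transcript, scaled to the mapped fragments of a library) over the 9 libraries, together with 14537 genes in all. RNA was sequenced from the renal cortex of male mice of the BKS background at 15 weeks of age, with 3 libraries per group, each from 1 mouse. The control group carried a heterozygous db mutation of the leptin receptor gene (Lepr) and was not diabetic. The dbdb group was homozygous for db and type 2 diabetic, and the dbR group was homozygous for db and received rosiglitazone, an agonist of the nuclear receptor PPAR gamma, at 20 mg/kg/day by gavage for 8 weeks from 7 weeks of age. The control and dbdb mice received vehicle over the same weeks. The controls were heterozygous littermates rather than mice without the mutation, the db mutation is carried in every cell, and each group was sampled once, so no rhythm could be measured. The hour of day and the feeding state at which the cortices were taken are not given in the sources used here.

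In the circadian clock, the activators CLOCK and BMAL1 (encoded by Arntl) bind E-boxes in the promoters of the Per and Cry genes, whose products then repress the activators. A connecting loop is formed by the REV-ERB repressors (Nr1d1, Nr1d2) and the ROR activators, which compete for ROR elements in Arntl and other genes. The PAR bZIP activators DBP, TEF and HLF and the repressor NFIL3 compete for D-boxes and carry the rhythm to output genes. The repressors BHLHE40 and BHLHE41 (DEC1 and DEC2) bind E-boxes, and CIART (CHRONO) represses CLOCK and BMAL1. In the kidney this system is known for daily rhythms in the handling of sodium, potassium and water.

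The promoters of the members were searched for these elements, and those in which one was found are printed to show where it lies. RefSeq windows of 300 bases (250 before to 50 after a gene's start) on GRCm38.p6 matched 8 of the 9 members by symbol, with 2 windows for Tef. The letters searched were CACGTG for the E-box, TTATGTAA or TTACGTAA for the D-box, and TAGGTCA or TGGGTCA for the ROR element, on both strands and with no overlap between them. Of 32851 windows of this length, 7.15% held the E-box, 1.06% the D-box and 6.45% the ROR element. Capitals mark the motif, and each sequence runs 5′ to 3′ on the strand of its gene.
Ciart, chr3:95882179-95882478, minus strand: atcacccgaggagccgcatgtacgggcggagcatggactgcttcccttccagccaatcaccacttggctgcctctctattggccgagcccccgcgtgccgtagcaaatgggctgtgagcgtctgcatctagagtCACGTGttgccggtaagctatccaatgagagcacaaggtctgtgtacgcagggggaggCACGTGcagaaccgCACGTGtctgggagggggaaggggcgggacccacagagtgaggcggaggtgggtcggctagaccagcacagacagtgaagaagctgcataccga
Tef, chr15:81802423-81802722, plus strand: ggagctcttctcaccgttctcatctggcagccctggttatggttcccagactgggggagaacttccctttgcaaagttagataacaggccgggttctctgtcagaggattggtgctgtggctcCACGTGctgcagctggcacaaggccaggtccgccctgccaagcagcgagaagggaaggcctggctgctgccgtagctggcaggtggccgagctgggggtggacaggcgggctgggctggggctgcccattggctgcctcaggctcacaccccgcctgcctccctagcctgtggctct
Tef, chr15:81811164-81811463, plus strand: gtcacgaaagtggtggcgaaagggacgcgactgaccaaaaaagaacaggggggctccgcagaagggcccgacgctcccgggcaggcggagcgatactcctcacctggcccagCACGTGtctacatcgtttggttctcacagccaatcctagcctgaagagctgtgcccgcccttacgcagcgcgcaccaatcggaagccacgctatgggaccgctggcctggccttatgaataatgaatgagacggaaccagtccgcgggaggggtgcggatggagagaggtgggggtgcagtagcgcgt
Bhlhe41, chr6:145865371-145865670, minus strand: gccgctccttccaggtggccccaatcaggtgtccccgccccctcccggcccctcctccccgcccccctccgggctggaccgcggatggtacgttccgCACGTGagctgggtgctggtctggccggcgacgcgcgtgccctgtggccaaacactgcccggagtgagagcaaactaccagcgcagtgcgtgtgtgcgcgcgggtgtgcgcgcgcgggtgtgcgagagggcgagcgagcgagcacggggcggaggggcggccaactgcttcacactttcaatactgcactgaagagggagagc
Nfil3, chr13:52980990-52981289, minus strand: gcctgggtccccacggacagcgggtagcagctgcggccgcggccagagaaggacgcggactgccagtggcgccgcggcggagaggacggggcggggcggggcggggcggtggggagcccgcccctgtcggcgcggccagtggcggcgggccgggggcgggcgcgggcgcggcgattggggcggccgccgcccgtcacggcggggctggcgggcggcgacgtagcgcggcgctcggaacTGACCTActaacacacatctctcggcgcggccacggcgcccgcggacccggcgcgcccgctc
Ciart held 3 E-boxes, whose first bases lay at positions -116, -58 and -44 relative to the start. Tef held 1 E-box in each window, at -127 and -138, and Bhlhe41 held 1 at -153. Nfil3 held a ROR element, read on the opposite strand, at -12. The windows of Dbp, Hlf, Nr1d1 and Nr1d2 held none of the searched letters, and no member's window held the D-box letters. In the Hlf and Nr1d1 windows the bases checked after the start matched no annotated transcript of the gene. Whether these windows sit on the start used in the cortex is therefore uncertain.

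The members differed in level per transcript length. On the FPKM scale Tef was the highest, with a mean of 83.2 over the 9 libraries, above 93.5% of the genes tested. Hlf, Dbp and Nr1d2 followed with means of 46.0, 44.5 and 43.1 FPKM, values whose order changed between groups. Bhlhe40 had a mean of 32.5, and its dbR mean of 37.8 exceeded the Dbp mean of 36.6 FPKM in that group. The means were 16.1 FPKM for Nr1d1 and 14.1 FPKM for Ciart, and this pair exchanged places between the control and dbdb groups. Bhlhe41 and Nfil3 were the lowest, with means of 2.32 and 2.07 FPKM, above 29.3% and 27.7% of the genes tested, and the ranges of this pair overlapped in each group.

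From the spacing of low FPKM values, the libraries held an estimated 26.5 to 33.0 M fragments, and 88.1 to 91.9% of the low values were whole fragments within 0.1. Mitochondrial genes took 26.9 to 32.8% of the mRNA FPKM. Lepr, the mutated gene, was at 1.05 to 1.23 FPKM in the control group, 0.304 to 0.652 in the dbdb group and 0.335 to 0.512 in the dbR group. Proximal tubule markers summed to 2473 to 3099 FPKM over the libraries, the highest sum of the marker lists. Markers of the distal convoluted tubule summed to 154 to 173 FPKM in the control, 281 to 308 in the dbdb and 315 to 355 in the dbR group, and those of the collecting duct to 57.0 to 70.0, 105 to 174 and 119 to 128 FPKM. Endothelial markers summed to 80.2 to 88.5, 56.2 to 60.5 and 80.5 to 96.2 FPKM in the same order, and the 5 macrophage and lymphocyte markers to 6.89 to 9.24, 2.88 to 3.85 and 4.72 to 5.11 FPKM. Thick ascending limb markers summed to 319 to 420, 310 to 505 and 370 to 436 FPKM, and podocyte markers to 60.8 to 70.2, 72.9 to 76.6 and 65.3 to 80.7 FPKM. For tissues next to the cortex, all 4 adipocyte markers stayed under 1 FPKM, and of the 3 adrenal cortex markers 1 was at 0 in all libraries and their sum was at most 1.37 FPKM. The distal convoluted tubule, collecting duct, endothelial, immune and podocyte marker sums, and the low adipocyte and adrenal cortex sums, did not overlap between the control and dbdb groups, and their part in the results below was not tested. In bulk cortex, fewer cells of a type and less RNA per cell cannot be told apart.

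The comparison of the dbdb group with the control group asked which members differed in diabetic cortex. Of the 9 members, 6 passed the test (limma, Benjamini-Hochberg adjusted p under 0.05 over all genes tested), 3 higher (Hlf, Nfil3, Bhlhe40) and 3 lower (Dbp, Nr1d1, Nr1d2), where 26.4% of all genes tested passed, 13.1% higher and 13.4% lower. The same 6 had an unadjusted p under 0.05, against 38.8% of all genes. The same 6 members had no overlap between the 3 dbdb and the 3 control libraries, against 42.4% of all genes. The median log2 fold change of the members was 0.19, and that of all genes was -0.00301. An exact permutation test of 3 against 3 libraries cannot go below p = 0.1, so single-gene p-values come from the fit across all genes. They rest on the spread between mice within groups, moderated with that of other genes of like level.

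**Figure D1:**
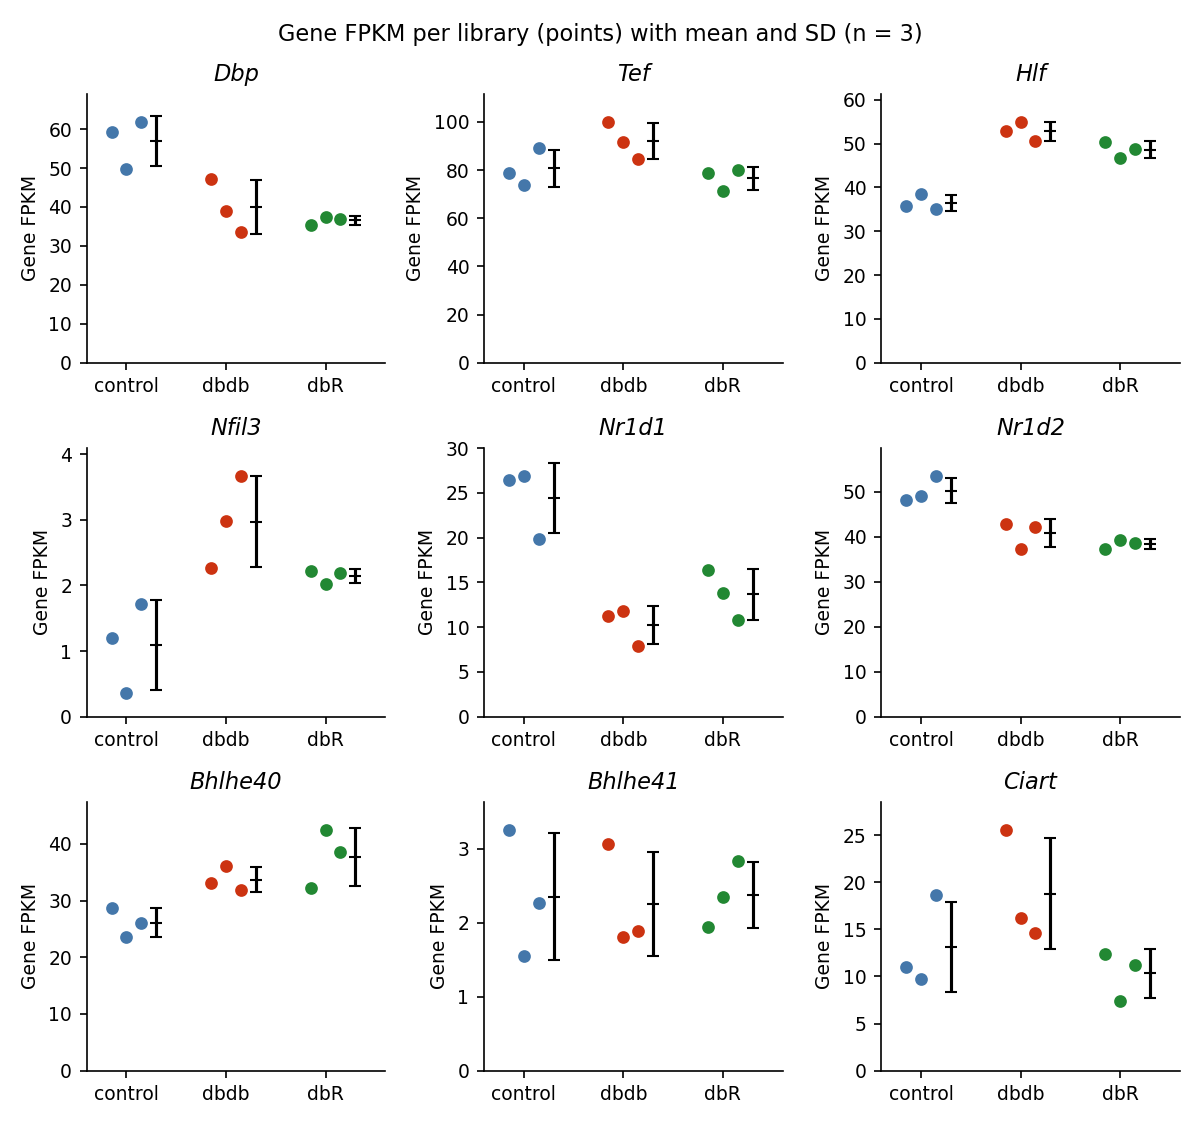
Gene FPKM (y axis, from 0) of the 9 members in each group (x axis), with 1 point per library and the mean ± SD (n = 3) beside the points. Nr1d1 and Dbp lay lower, and Hlf higher, in all dbdb and dbR libraries than in all control libraries.

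Among the PAR bZIP activators, Dbp fell and Hlf rose. Dbp measured 59.3, 49.8 and 61.7 FPKM in the control mice, 47.3, 39.1 and 33.5 in the dbdb mice and 35.3, 37.5 and 37.0 in the dbR mice. Every dbdb and dbR library lay below every control library, with the nearest pair at 47.3 and 49.8 FPKM. The log2 fold change on the log2(FPKM + 0.1) scale was -0.52 ± 0.12 (SE, adjusted p = 0.0106) in the dbdb group and -0.63 ± 0.12 (adjusted p = 0.00432) in the dbR group, each against the control group. The dbR and dbdb groups differed by -0.11 (95% confidence interval -0.38 to 0.15, adjusted p = 0.666). Most of the gene level, 91.5 to 93.4% by group, came from the transcript ENSMUST00000080885, and its own log2 fold change of -0.49 missed the threshold among all transcripts (adjusted p = 0.0570). Dbp (chr7:45705088-45710203, plus strand, GRCm38) shares 539 of its 2993 exonic bases with Sphk2 on the opposite strand, and the strand setting of the counting is not given in the sources used here. Sphk2 did not pass the test in any comparison, differing on the log2 scale by -0.16 (adjusted p = 0.148) in the dbdb group and -0.20 (adjusted p = 0.0807) in the dbR group against the control group.

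In the control and dbdb groups Hlf had the smallest relative spread between mice of all members. It measured 35.7, 38.4 and 35.0 FPKM in the control mice, 53.0, 54.9 and 50.5 in the dbdb mice and 50.5, 46.8 and 48.7 in the dbR mice. Both db/db groups lay wholly above the controls. The dbdb libraries also lay above the dbR libraries, though the nearest pair was almost level. The log2 fold change was 0.54 ± 0.06 (adjusted p = 0.000211) in the dbdb group and 0.42 ± 0.06 (adjusted p = 0.000926) in the dbR group against the control group. Between dbR and dbdb it was -0.12 (95% confidence interval -0.25 to 0.01, adjusted p = 0.341). The transcript ENSMUST00000004051 carried 91.3 to 94.2% of the level.

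Tef did not pass the test in any comparison. It measured 78.9, 74.0 and 89.3 FPKM in the control mice, 99.9, 91.6 and 84.7 in the dbdb mice and 78.7, 71.2 and 80.1 in the dbR mice. The control libraries overlapped both other groups, whereas each dbdb library exceeded each dbR library. The log2 fold change was 0.19 (95% confidence interval -0.00 to 0.38, adjusted p = 0.133) for dbdb against control and -0.26 (-0.45 to -0.07, unadjusted p = 0.0128, adjusted p = 0.165) for dbR against dbdb. Between dbR and control it was -0.07 (-0.26 to 0.12, adjusted p = 0.593), a direction that turned positive under quantile normalization and with mitochondrial genes left out (0.02 in each). With those scalings Tef passed the test for dbdb against control, at 0.31 (adjusted p = 0.0139) and 0.35 (adjusted p = 0.00635). Of its transcripts, ENSMUST00000109553 carried 75.5 to 79.5% and ENSMUST00000023024 carried 19.1 to 22.0% of the level by group. Its start overlaps the antisense transcript Gm17597 by 193 bases, and Gm17597 lay at 0.997 to 1.92 FPKM in all 9 libraries.

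The sum of the 3 activators and its make-up were then set side by side. Dbp, Tef and Hlf summed to 162 to 186 FPKM in the control, 169 to 200 in the dbdb and 155 to 166 in the dbR group, the control range overlapping both others and every dbdb library lying above every dbR library. Dbp made up 30.7 to 34.1% of the sum in the control libraries, 19.9 to 23.6% in the dbdb libraries and 21.4 to 24.1% in the dbR libraries. Hlf made up 18.8 to 23.7%, 26.5 to 29.9% and 29.4 to 30.7% in the same order, and Tef 45.3 to 48.0%, 49.4 to 50.2% and 45.8 to 48.3%. Thus Dbp exceeded Hlf in all control libraries and Hlf exceeded Dbp in all dbdb and dbR libraries.

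**Figure D2:**
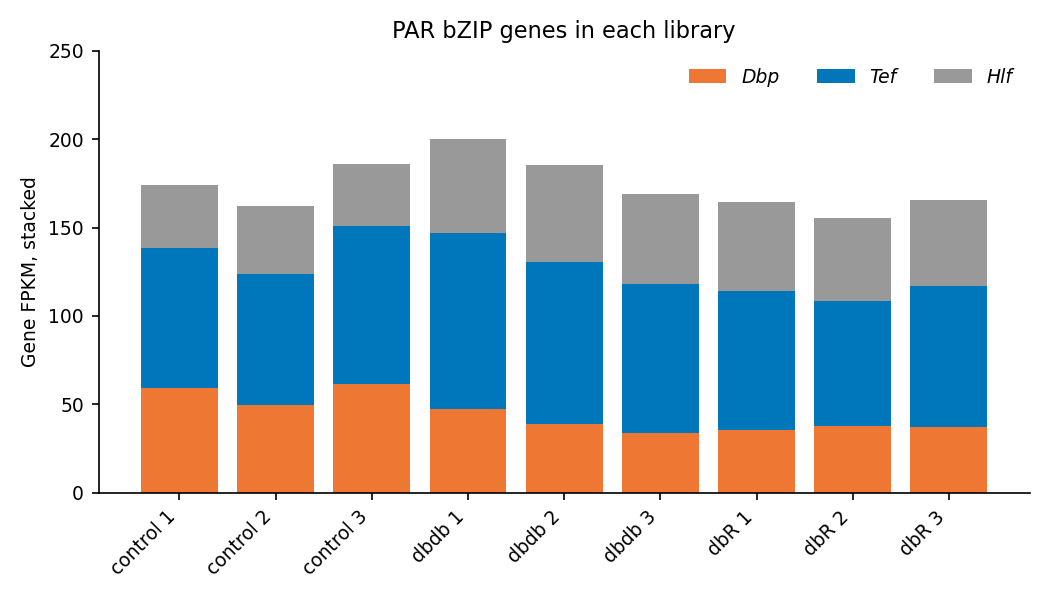
Gene FPKM of Dbp, Tef and Hlf, stacked (y axis, from 0), in each of the 9 libraries (x axis). The bars reach 155 to 200 FPKM, every dbdb bar being taller than every dbR bar, and the Dbp part is larger than the Hlf part in control libraries only.

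Nfil3, the repressor that competes with these activators, was low and rose in the dbdb group. It measured 1.20, 0.367 and 1.72 FPKM in the control mice, 2.27, 2.98 and 3.66 in the dbdb mice and 2.22, 2.01 and 2.19 in the dbR mice. All dbdb and dbR libraries lay above all control libraries, and all dbR libraries lay below all dbdb libraries. For dbdb against control the log2 fold change was 1.54 ± 0.41 (adjusted p = 0.0195), with -0.43 (95% confidence interval -1.34 to 0.47, adjusted p = 0.625) for dbR against dbdb and 1.11 (0.21 to 2.02, adjusted p = 0.0727) for dbR against control. The control 2 library rested on about 18 fragments, so that its 0.367 FPKM has an exact Poisson 95% interval of 0.217 to 0.579, which covers counting error only. Other libraries held 62 to 186 fragments. Without control 2 the log2 fold change for dbdb against control was 0.97 and still passed, whereas without dbdb 2 or dbdb 3 it did not (adjusted p = 0.0555 and 0.0587). The value for dbR against dbdb was -0.27 without dbdb 3. That for dbR against control was 0.54 without control 2 (adjusted p = 0.107) and 1.52 without control 3, where it passed (adjusted p = 0.0223). The summed activators exceeded Nfil3 by a ratio of 108 to 442 in the control, 46.1 to 88.1 in the dbdb and 74.2 to 77.2 in the dbR libraries.

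The REV-ERB repressors both fell, Nr1d1 by more than Nr1d2. Nr1d1 measured 26.4, 26.9 and 19.9 FPKM in the control mice, 11.2, 11.8 and 7.86 in the dbdb mice and 16.4, 13.9 and 10.8 in the dbR mice. The lowest control library exceeded the highest library of either db/db group, and the dbR libraries overlapped the dbdb libraries. In the dbdb group the log2 fold change against control was -1.25 ± 0.19 (adjusted p = 0.0013), the largest fall among the members. For dbR against control it was -0.84 ± 0.19 (adjusted p = 0.0109), and for dbR against dbdb it was 0.41 (95% confidence interval -0.02 to 0.83, unadjusted p = 0.0573, adjusted p = 0.304). The last value was 0.23 without dbdb 3 and 0.27 without dbR 1. These values rested on an estimated 555 to 1898 fragments per library. Nr1d1 (chr11:98767932-98775333, minus strand, GRCm38) shares 263 of 3077 exonic bases with Thra on the opposite strand, which encodes thyroid hormone receptor alpha. Thra stayed between 14.0 and 16.5 FPKM in all libraries and did not pass the test, with a log2 fold change of 0.05 for dbdb against control (adjusted p = 0.677).

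Nr1d2 measured 48.2, 49.1 and 53.4 FPKM in the control mice, 42.9, 37.2 and 42.2 in the dbdb mice and 37.2, 39.2 and 38.6 in the dbR mice. All libraries of the db/db groups lay below all control libraries. Its log2 fold change was -0.30 ± 0.07 (adjusted p = 0.00975) for dbdb against control, -0.39 ± 0.07 (adjusted p = 0.003) for dbR against control and -0.09 (95% confidence interval -0.24 to 0.07, adjusted p = 0.550) for dbR against dbdb, the last being -0.05 without dbdb 1 and -0.15 without dbdb 2. With mitochondrial genes left out, which moved the median of all genes by 0.15, the dbdb value was -0.14 and did not pass (adjusted p = 0.125). Nr1d1 made up 27.1 to 35.4% of the summed REV-ERB level in the control, 15.7 to 24.0% in the dbdb and 21.8 to 30.6% in the dbR libraries, so the control and dbdb ranges of this share did not overlap while the dbR range overlapped both.

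Of the E-box repressors, Bhlhe40 rose and Bhlhe41 did not pass the test. Bhlhe40 measured 28.6, 23.5 and 26.1 FPKM in the control mice, 33.1, 36.2 and 31.8 in the dbdb mice and 32.3, 42.4 and 38.6 in the dbR mice. The db/db groups overlapped each other and lay above all controls. On the log2 scale the difference was 0.37 ± 0.11 (adjusted p = 0.0282) for dbdb against control, 0.53 ± 0.11 (adjusted p = 0.00591) for dbR against control and 0.16 (95% confidence interval -0.08 to 0.39, adjusted p = 0.484) for dbR against dbdb. The last value was 0.27 without dbR 1 and 0.07 without dbR 2. The first of these calls was lost without control 2, control 3, dbdb 1 or dbdb 2 (adjusted p = 0.0939, 0.0652, 0.0562 and 0.0951). The call for dbR against control held without any 1 library (adjusted p = 0.00308 to 0.0236).

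Bhlhe41 measured 3.25, 1.54 and 2.26 FPKM in the control mice, 3.06, 1.80 and 1.89 in the dbdb mice and 1.95, 2.34 and 2.83 in the dbR mice. The 3 groups overlapped, with means of 2.35 ± 0.854, 2.25 ± 0.700 and 2.37 ± 0.441 FPKM (SD, n = 3). The 95% confidence interval of the log2 fold change ran from -0.64 to 0.57 for dbdb against control, an interval that includes changes larger than those of Bhlhe40. Much of this spread came from the minor transcript ENSMUST00000111703, at 0.550 ± 0.556, 0.370 ± 0.586 and 0.579 ± 0.437 FPKM, while the main transcript ENSMUST00000032386 was at 1.80 ± 0.303, 1.88 ± 0.138 and 1.79 ± 0.0701 FPKM. In its exons 1280 of 6720 bases overlap Gm43909 on the opposite strand.

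Relative to its mean, Ciart had the widest spread between mice among the members above 10 FPKM. It measured 11.0, 9.72 and 18.6 FPKM in the control mice, 25.5, 16.2 and 14.6 in the dbdb mice and 12.4, 7.44 and 11.2 in the dbR mice. Control 3 lay among the dbdb libraries, and all dbR libraries lay below all dbdb libraries. The log2 fold change was 0.53 (95% confidence interval -0.10 to 1.16, adjusted p = 0.195) for dbdb against control, -0.84 (-1.47 to -0.21, unadjusted p = 0.0137, adjusted p = 0.170) for dbR against dbdb and -0.31 (-0.94 to 0.32, adjusted p = 0.464) for dbR against control. None of these passed the test. For dbdb against control the value was 0.29 without dbdb 1, 0.35 without control 2 and 0.81 without control 3, and for dbR against control it was -0.50 without control 2, -0.09 without dbR 2 and -0.03 without control 3. As a single transcript ENSMUST00000036418 had 0.12 for dbdb against control (adjusted p = 0.870) and -0.42 for dbR against dbdb (adjusted p = 0.701).

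Among the 6 Ciart transcripts, the main one, ENSMUST00000036418, was at 8.50 ± 2.46 FPKM in the control, 9.50 ± 4.09 in the dbdb and 6.85 ± 1.72 in the dbR group. ENSMUST00000159863 was at or near 0 in control 1, dbR 2 and dbR 3, at 0.756 and 3.44 FPKM in the other control libraries, at 4.33, 3.26 and 2.05 FPKM in the dbdb libraries and at 0.571 FPKM in dbR 1. It held 17.1% of the Ciart level in the dbdb group and 1.84% in the dbR group. ENSMUST00000161994 was at 1.08 ± 0.420, 2.36 ± 0.798 and 0.724 ± 0.209 FPKM, and its dbdb libraries (1.57 to 3.17 FPKM) lay above its control libraries (0.673 to 1.51 FPKM). The division of reads between transcripts of 1 gene was estimated by Cufflinks, and it was not tested here.

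**Figure D3:**
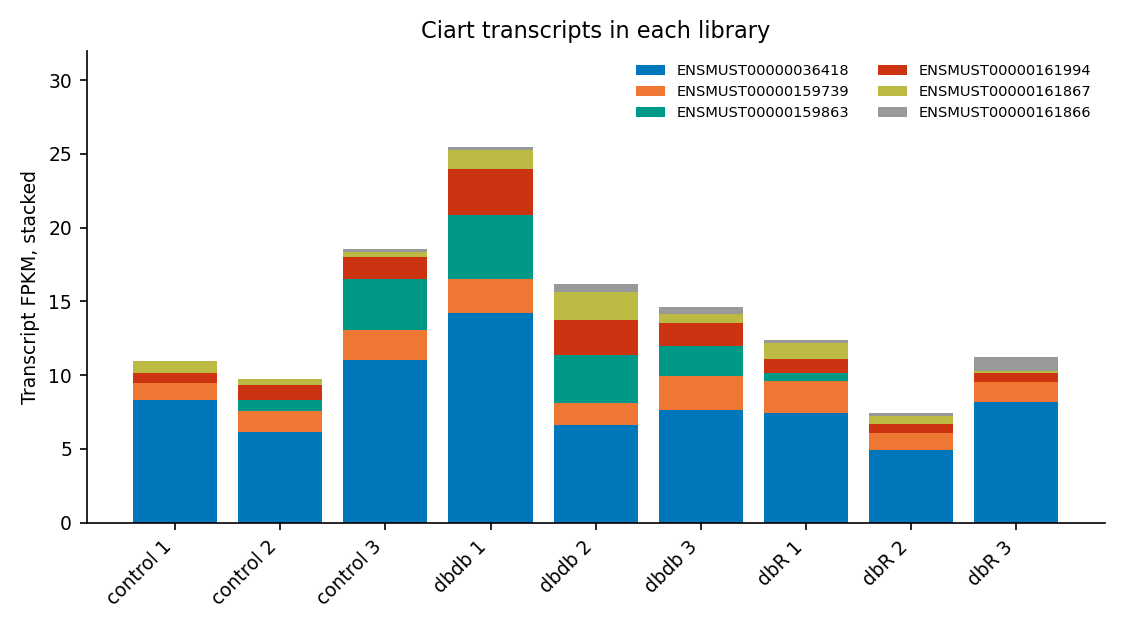
FPKM of the 6 Ciart transcripts, stacked (y axis, from 0), in each of the 9 libraries (x axis). ENSMUST00000159863 forms a visible part of the bars in control 3 and the 3 dbdb libraries, at 2.05 to 4.33 FPKM, and is nearly missing in dbR 2 and dbR 3.

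The comparison of the dbR group with the dbdb group asked which members differed after rosiglitazone. None of the 9 passed the limma test, where 0.743% of all genes tested passed, 0.564% higher and 0.179% lower. At an unadjusted p under 0.05 there were 2 members, Tef and Ciart, both lower, where 17.5% of all genes had such a p. Without overlap between the groups there were 4 members, Tef, Hlf, Nfil3 and Ciart, all lower in the dbR libraries, against 22.7% of all genes in either direction. The median log2 fold change of the members was -0.11 and that of all genes -0.00219. The confidence intervals given above still allow changes between dbR and dbdb as large as 0.83 for Nr1d1, -1.34 for Nfil3 and -1.47 for Ciart on the log2 scale.

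The dbR and control groups differed in both genotype and treatment. Here 5 members passed, Hlf and Bhlhe40 higher and Dbp, Nr1d1 and Nr1d2 lower, where 24.1% of all genes tested passed, 12.3% higher and 11.8% lower. At an unadjusted p under 0.05 there were 6 members, Nfil3 being added, against 36.8% of all genes, and 6 did not overlap, against 41.9%. This comparison and that of dbdb with control use the same 3 control libraries, so the values are given side by side without a comparison of the lists. The log2 fold changes for dbR and for dbdb against control were -0.63 and -0.52 for Dbp, 0.42 and 0.54 for Hlf, -0.84 and -1.25 for Nr1d1, -0.39 and -0.30 for Nr1d2, and 0.53 and 0.37 for Bhlhe40.

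**Figure D4:**
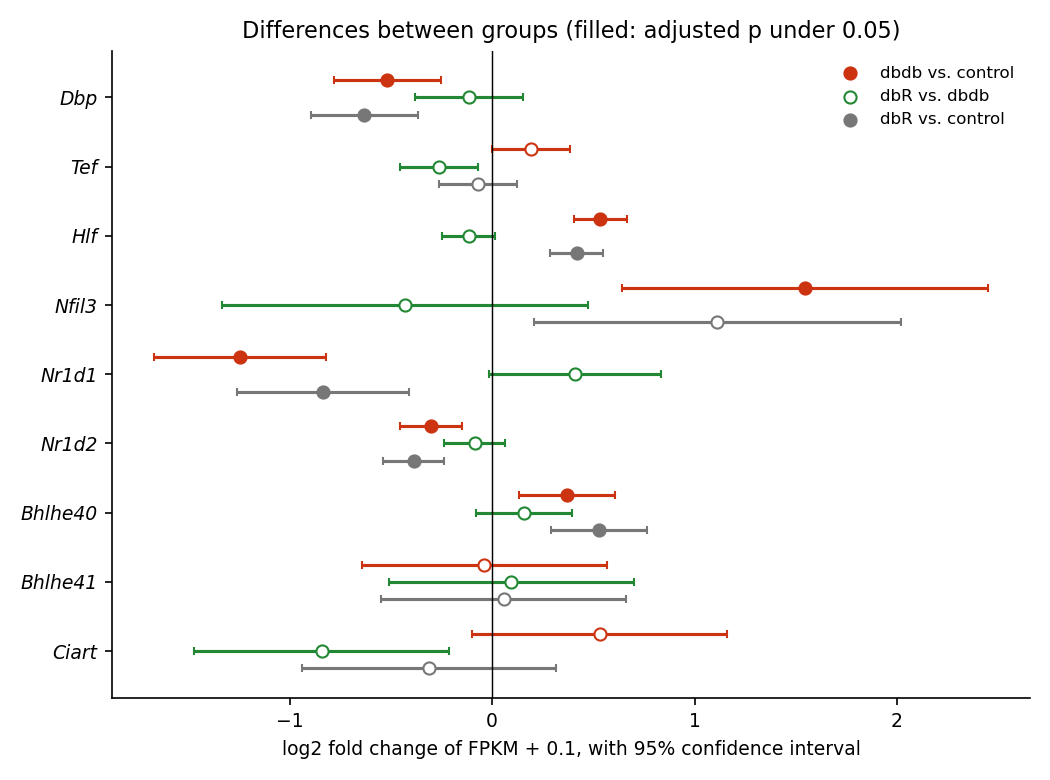
Log2 fold change of FPKM + 0.1 (x axis) with its 95% confidence interval for the 9 members (y axis) in the 3 comparisons. Filled points passed at an adjusted p under 0.05: 6 for dbdb vs. control, none for dbR vs. dbdb and 5 for dbR vs. control.

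The 16 other genes of the core loop were counted in the same fit. For dbdb against control, 6 were higher, among them Per1, Per2, Cry1, Cry2 and Csnk1e, none was lower and 10 did not pass, with a median log2 fold change of 0.17, beside the 13.1% of all genes that were higher and 13.4% lower. Cry1, a repressor of CLOCK and BMAL1, went from 0.872 ± 0.153 to 4.48 ± 0.609 FPKM (SD, n = 3), which was 2.24 on the log2 scale (adjusted p = 1.7e-05). The partner repressor genes Per1 and Per2 rose as well, by 1.48 on the log2 scale (adjusted p = 0.000163) for Per1 and by 1.20 (adjusted p = 1.22e-05) for Per2, and Cry2 had 0.93 (adjusted p = 0.000365). Csnk1e, a kinase that marks PER proteins for degradation, had 0.66 (adjusted p = 0.00724). Thus the passing repressors of the clock did not share a direction, with Per1, Per2, Cry1, Cry2, Nfil3 and Bhlhe40 higher and Nr1d1 and Nr1d2 lower. Each group was sampled once, at an hour not given. Differences in level, in the timing of a rhythm and in the hour of collection therefore cannot be told apart.

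For dbR against dbdb, 1 core gene passed, Per2, from 16.6 ± 0.748 to 11.8 ± 0.492 FPKM (log2 fold change -0.49, adjusted p = 0.0282), and 15 did not, with a median of -0.05, where 0.743% of all genes passed. The Per2 call was lost without dbdb 1, dbdb 2 or any 1 of the dbR libraries (adjusted p = 0.0528 to 0.149). The 3 largest changes were those of Arntl (0.63, adjusted p = 0.362), Per1 (-0.53, adjusted p = 0.130) and Npas2 (0.50, adjusted p = 0.769), and none passed. Arntl was 0.21 without dbdb 1 and 0.85 without dbdb 2. Npas2, an alternative partner of BMAL1, turned to -0.22 without dbdb 3. For dbR against control, which uses the same control libraries, 6 core genes were higher and none lower, beside 12.3% of all genes higher and 11.8% lower, with log2 fold changes that included 1.95 for Cry1, 0.95 for Per1, 0.71 for Per2, 0.81 for Cry2 and 0.60 for Csnk1e. Arntl, which the REV-ERB proteins repress, was at 0.389, 0.601 and 0.355 FPKM in the control mice, 0.276, 0.808 and 0.804 in the dbdb mice and 0.788, 1.03 and 1.05 in the dbR mice. Its value for dbR against control was 0.96 (adjusted p = 0.0613), and it passed in 4 alternatives, with a pseudocount of 1 (0.43, adjusted p = 0.0422), in the fit to 6 libraries (adjusted p = 0.0159), with the replicate block (adjusted p = 0.0391) and without dbdb 1 (adjusted p = 0.00975), a library outside the comparison that adds to the shared spread.

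**Figure D5:**
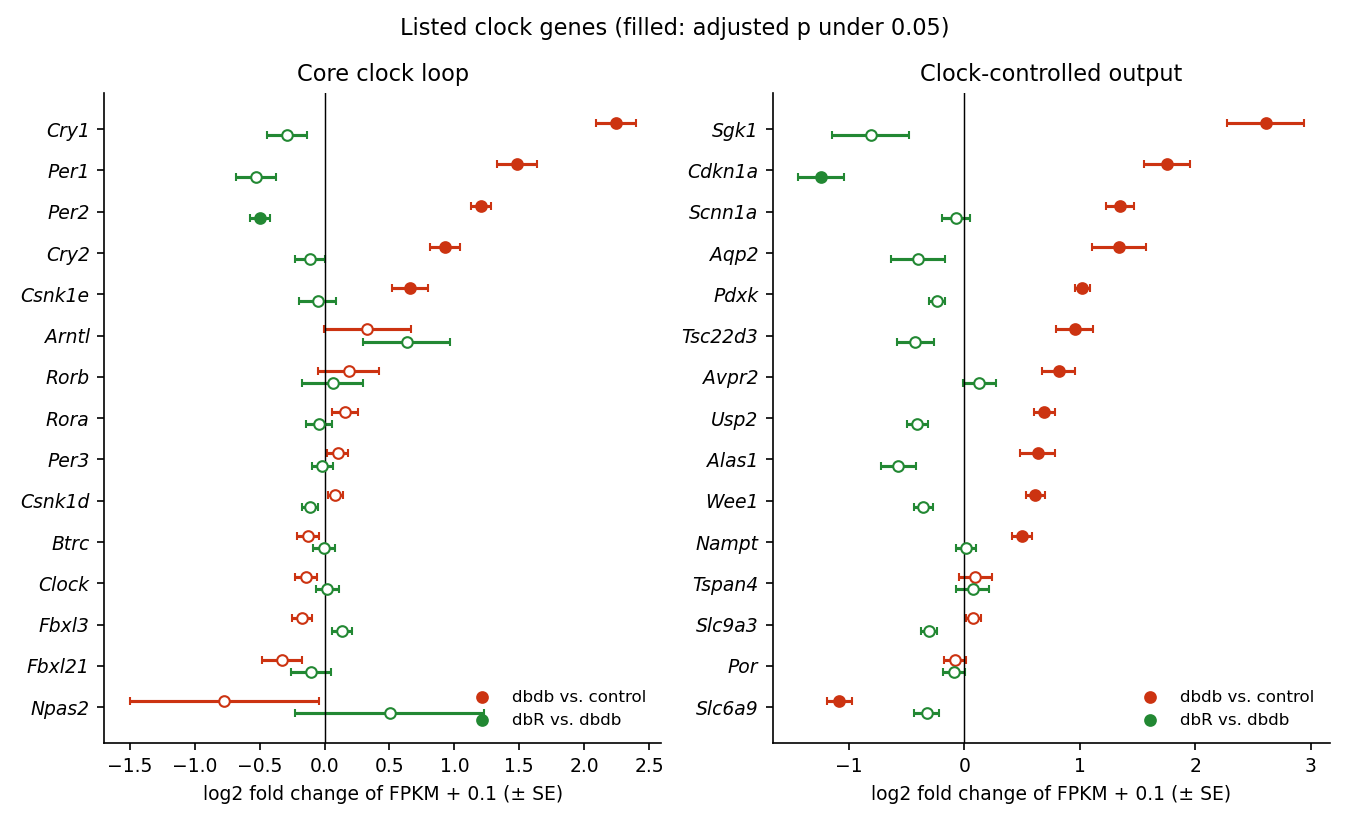
Log2 fold change of FPKM + 0.1 (x axis, ± SE) of 15 of the core loop genes and 15 of the listed output genes (y axes) for dbdb vs. control and dbR vs. dbdb. Filled points passed at an adjusted p under 0.05: 5 and 12 of the genes shown for dbdb vs. control, and 1 gene in each list, Per2 and Cdkn1a, for dbR vs. dbdb.

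Of 16 genes listed as clock-controlled outputs, 11 were higher and 1 lower for dbdb against control, with a median log2 fold change of 0.66, beside the same shares of all genes. Of the sodium transport genes, Sgk1, a kinase that raises epithelial sodium channel activity, had a log2 fold change of 2.61 (adjusted p = 0.000467), Scnn1a, a subunit of that channel, had 1.35 (adjusted p = 7.33e-05), and Slc9a3, a sodium-proton exchanger, did not pass. Cdkn1a, a cell cycle inhibitor, had 1.75 (adjusted p = 0.000228). The water channel gene Aqp2 and the vasopressin receptor gene Avpr2 had 1.34 and 0.82 (adjusted p = 0.00271 and 0.00276). Both are also collecting duct markers, whose summed level was higher in the dbdb group (above). Pdxk and Alas1, which encode enzymes of pyridoxal phosphate and heme synthesis, had 1.02 and 0.64 (adjusted p = 1.36e-05 and 0.0131). Usp2, Wee1, Tsc22d3 and Nampt had 0.69, 0.61, 0.96 and 0.50, with adjusted p from 0.000532 to 0.00287. Slc6a9, a glycine transporter gene, had -1.08 (adjusted p = 0.000138).

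For dbR against dbdb, 1 output gene passed, Cdkn1a, from 4.82 ± 1.34 to 1.93 ± 0.110 FPKM (log2 fold change -1.24, adjusted p = 0.0295), and the median was -0.34, where 0.743% of all genes passed. That call was lost without dbdb 2 or any 1 dbR library (adjusted p = 0.0673 to 0.149). At an unadjusted p under 0.05 there were 10 of the 16 genes, against 17.5% of all genes. The next largest values were those of Sgk1 (-0.81, adjusted p = 0.248) and Alas1 (-0.57, adjusted p = 0.103), that of Sgk1 being -0.52 without dbR 1 and -1.24 without dbR 3. For dbR against control, 9 output genes were higher and 3 lower, with a median of 0.40, beside 12.3% of all genes higher and 11.8% lower. Scnn1a (1.28), Sgk1 (1.80), Pdxk (0.79), Avpr2 (0.95), Nampt (0.52) and, on the lower side, Slc6a9 (-1.41) passed in every fit without 1 library. Each of the other 6 lost the call without at least 1 library, for example Usp2 (0.29) without any 1 library other than dbR 2 (adjusted p = 0.0506 to 0.142), Wee1 (0.26) without any 1 other than dbdb 1 and dbdb 3 (0.0550 to 0.118), Tsc22d3 (0.53) without control 1, control 2, dbR 2 or dbR 3 (0.0934 to 0.121), Aqp2 (0.93) without control 2 or dbR 3 (0.0592 and 0.0558) and Slc9a3 (-0.23) without control 1, control 2, dbR 2 or dbR 3 (0.0880 to 0.0991).

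Long noncoding RNAs were also measured, and 7 of their transcripts lay within 100 kb of a member. Of these, 1 passed the test for dbdb against control, 0610040F04Rik, whose start overlaps that of Bhlhe40 by 306 bases on the opposite strand, where 5.77% of 2496 lncRNA transcripts passed. It measured 1.54, 0.715 and 1.34 FPKM in the control mice, 0.125, 0.484 and 0.236 in the dbdb mice and 0.708, 0.886 and 0.896 in the dbR mice. The dbdb libraries lay below all others, whereas Bhlhe40 was higher in the dbdb than in the control libraries. The log2 fold change was -1.81 ± 0.39 (adjusted p = 0.0251) for dbdb against control. For dbR against dbdb it was 1.39 (unadjusted p = 0.00545, adjusted p = 0.506), where limma called no lncRNA, and for dbR against control it was -0.42 (adjusted p = 0.614), where 5.33% passed. The last value was -0.23 without control 1 and -0.73 without control 2. The call for dbdb against control was lost without control 1, control 3, dbdb 1, dbdb 3 or dbR 2 (adjusted p = 0.0506 to 0.104). C920021L13Rik spans the whole of Ciart on the opposite strand without sharing exons. Its transcript ENSMUST00000143306, at 1.16 ± 0.302, 2.27 ± 0.782 and 2.67 ± 0.860 FPKM, did not pass. The adjusted p was 0.124 for dbdb and 0.0658 for dbR against control, though all dbdb and dbR libraries lay above all control libraries.

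The genes whose log2 levels followed each member most closely over the 9 libraries were sought among 11606 genes with a mean of at least 1 FPKM. Pearson's r describes a pattern that the 3 groups and the libraries share, with no test. For Hlf they were Rbpms, Pdxk and Man2a1 (r = 0.996, 0.995 and 0.989), for Dbp Nt5dc1 and Slc5a8 (0.990 and 0.986), and for Nr1d2 Rrm2b, Tnpo1 and B3galnt2 (0.997 to 0.975). For Nr1d1 they were Dhcr7, Aplnr and Zfp93 (0.982 to 0.962), for Nfil3 Hyal1, Pex16 and Itgb5 (0.974 to 0.939), and for Bhlhe40 Slc5a9, Rwdd4a and Aldh3b1 (0.957 to 0.948). Tef and Ciart shared their first pair, Spint1 and Pradc1 (0.948 and 0.935 for Tef, 0.921 and 0.918 for Ciart), followed by Polr3a (0.932) and Fth1 (0.913). For Bhlhe41 they were Ece1, Hist1h4b and Stim2 (0.929 to 0.881).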

How the data were processed

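Renal cortex RNA of 9 mice (3 groups of 3) was depleted of ribosomal RNA, made into strand-specific libraries and sequenced in pairs by the authors, who mapped cleaned reads with TopHat2 2.0.9 to GRCm38.p2, used Scripture and Cufflinks 2.1.1 for assembly, and deposited the FPKM that Cufflinks gave each transcript. Here the FPKM of the 50660 mRNA transcripts were summed per gene (21950 genes). Genes with a mean of at least 0.1 FPKM were tested with limma 3.58.1 in R 4.3.3, with a trend, on log2(FPKM + 0.1), all 9 libraries in 1 model, two-sided, with Benjamini-Hochberg adjustment over the 14537 genes, and called at an adjusted p under 0.05. The added 0.1 makes fold changes of low genes understated. lncRNA transcripts were fitted alone in the same way.

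The members and gene lists were chosen with earlier results of these data known. All 9 members are named in every comparison, with the listed core and output genes that were called or among the 3 largest changes of their list, the 3 genes most like each member, genes that overlap a member, and Lepr. Values of 3 of these genes are not reported here, though they are in the counts. Depth was estimated from FPKM steps, with 250 bases taken off transcript lengths.

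Tested on simulated data with 200 of 14537 genes changed, the fit recovered 79.5% of log2 changes of 1 for dbdb against control and 73% for dbR against dbdb. For log2 changes of 2 the shares were 95% and 96.5%. Of the calls at a change of 1, 6 of 165 and 8 of 154 were false. Smaller changes were not simulated. The share of genes changed also differs from the 26.4% and 0.743% called in the data, so recovery there may differ. Alternatives were other pseudocounts, filters, scalings and limma settings, a fit to 6 libraries, transcripts in place of genes, a replicate block and leaving out each library. Those for lncRNAs were chosen after seeing the data. Libraries of a group correlated at 0.985 to 0.992, and no pair was a repeat.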

Additional observations from a re-analysis of the deposited data

How the results depend on the processing

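For the members, 536 of 567 refits kept direction and side of the threshold, 11 lost a call, 4 gained one and 16 turned the sign of a value that did not pass. The calls of Hlf and Nr1d1 against control held in all 21 alternatives of each. Losses and gains for single members without 1 library stand beside their values. The other losses for dbdb against control were Dbp and Nfil3 as single transcripts (adjusted p = 0.0570 and 0.0662), Nr1d2 with mitochondrial genes left out (0.125) and Bhlhe40 without a trend (0.0547). Nfil3 was gained for dbR against control with mitochondrial genes left out (0.0474). Leaving those genes out moved the median log2 fold change of all genes by 0.15 for dbdb against control and raised the share of higher calls from 49.5% to 78.3%. For dbR against control that share went from 51.1% to 70.5%, or 62.3% with scaling to the 75th percentile, and for dbR against dbdb from 75.9% to 48.6%. The cause was not tested.

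Signs that turned were Tef for dbR against control (0.0214 with quantile normalization, 0.0232 with mitochondrial genes left out, -0.13 without control 2 to 0.00325 without control 3) and Dbp for dbR against dbdb (-0.23 without dbdb 3 to 0.0144 without dbdb 1). Bhlhe41 for dbdb against control turned with mitochondrial genes left out (0.112) and as a single transcript (0.0700), and ranged from -0.30 to 0.22 without 1 library. Bhlhe41 for dbR against dbdb was -0.0650 as a single transcript and -0.0372 to 0.33 without 1 library. For dbR against control it was -0.0763 with quantile normalization and -0.20 to 0.31 without 1 library. Npas2 for dbR against dbdb ranged from -0.22 to 1.10 without 1 library.

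For dbR against dbdb, 0 members passed in every alternative. There, the 1 core and the 1 output call both fell to 0 without a filter, in the fit to 6 libraries, without a trend and as single transcripts. The output count was 2 with quantile normalization and with mitochondrial genes left out, and both counts ranged from 0 to 1 without 1 library. All genes called there numbered 108, but 2 without dbR 2, 10 without dbR 3, 31 without dbdb 2, 36 without dbdb 1, 18 without a trend, 22 in the fit to 6 libraries, 31 without a filter, 5 among transcripts and 234 with quantile normalization. Members without overlap there numbered 2 with scaling to the 75th percentile (22.6% of all genes) and 3 with mitochondrial genes left out (23.9%). Output calls for dbR against control were 6 as single transcripts (8.50% of all transcripts called) and 7 to 12 without 1 library (17.1% to 24.6% of all genes). The nearby lncRNA call for dbdb against control fell to 0 in the fit to 6 libraries, and ranged from 0 to 1 without 1 library. With a mean of at least 1 FPKM required, that lncRNA, 0610040F04Rik, was not tested, its mean being 0.769 FPKM. For dbR against control 1 nearby lncRNA, ENSMUST00000143306 of C920021L13Rik, passed with mitochondrial genes left out (adjusted p = 0.0369).

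Same-numbered libraries did not deviate together (r from -0.175 to 0.0615 over 9 pairs), so the numbers were taken only as names of mice. Over the 18 differently numbered pairs r ran from -0.108 to 0.168, with 2 pairs over 0.1. With the replicate block 5 members passed for dbdb against control, where 23.0% of all genes passed, Bhlhe40 being lost (adjusted p = 0.0539), and 0 core genes, 0 output genes and 23 genes in all passed for dbR against dbdb. The nearby lncRNA call fell to 0 with the replicate block.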
